A study of Mus musculus with 5 samples.

Results

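The genes described here are 35 named genes of S phase and DNA replication in the mouse retina, read by symbol from a table of 43432 gene IDs. They cover origin licensing, helicase activation, the replication fork, nucleotide synthesis, chromatin assembly and the control of S phase entry. All 35 were found once in the table and all 35 passed the low-count filter, so they are 35 of the 17039 genes tested. Poly(A) RNA of mouse retinas taken at postnatal day 7 was sequenced. There are 2 labelled groups, of 3 libraries labelled Ctrl and 2 labelled Mettl14_cko, each with a letter. In mouse genetics cko usually stands for a conditional knockout. The labels used here name no allele, Cre driver, strain or sex for either group, and do not say whether each library is 1 animal or a pool. The name of the deposited table begins with the symbol Six3 followed by M3M14, which the labels do not explain. The series title names Mettl3 beside Mettl14.

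DNA replication is prepared in G1, when the origin recognition complex, Cdc6 and Cdt1 load the Mcm helicase subunits onto DNA as an inactive ring. At the start of S phase, Cdc45 and the GINS complex join the ring to form the active helicase, polymerase alpha-primase lays down primers, and the sliding clamp Pcna, loaded by replication factor C, holds the polymerases on DNA. Many of these genes are targets of E2F transcription factors and are transcribed mainly in dividing cells. In the mouse retina most cells have left the cycle by the end of the first postnatal week, and the remaining dividing cells include late progenitors at the periphery, vascular cells and glia.

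Mettl14, the gene named in the labels, was not lower in the libraries labelled cko. It was at 41.5, 46.7 and 38.7 CPM in controls a, b, c and at 55.6 and 44.8 CPM in those labelled cko a and b (log2 0.25, SE 0.20; edgeR adjusted p = 0.640). Mettl3, named in the title, was at 66.0 to 72.4 CPM in the controls and at 65.6 and 52.0 CPM (log2 -0.25, SE 0.19; edgeR adjusted p = 0.615). CPM is the read count divided by the library's total in units of 1e6 reads, with totals scaled by TMM, and log2 values are fitted differences of the libraries labelled cko over the controls. Reads were counted over all exons together, so loss of a single exon was not measured, and each direction below is that of the labelled libraries. Total counts per library ran from 24315693 to 27100918. Rod genes were high in every library, with Sag, the rod arrestin, between 2054 and 5365 CPM. Summed lens and blood markers did not overlap between the groups. The 7 lens markers summed to 618 to 1354 CPM in the controls and 18.7 to 62.1 CPM in the libraries labelled cko. The 6 blood markers summed to 170 to 463 CPM and 40.9 to 127 CPM. Of the lens list 5 genes were called lower (Crybb1 -4.86 and Cryaa -4.47 on the log2 scale), and of the blood list 0 (Slc4a1 -2.93, Hba-a1 -2.23). The part of lens or blood RNA in the values below was not tested.

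Transcripts of the replication genes were present at modest levels in both groups, and none differed past the test between them. EdgeR called 0 of the 35 members at an adjusted p under 0.05, against 0.0998% of all genes tested, and the adjusted p-values of the members ran from 0.443 to 0.99996. DESeq2 and limma-voom also called 0. Their unadjusted p was under 0.05 for 3 and for 2 members. In edgeR, at an unadjusted p under 0.05 stood 3 members, or 8.57%, where 10.8% of all genes tested did: Rfc2 and Pcna on the lower side, with 5.36% of all genes tested, and Mcm6 on the higher side, with 5.45%. The fitted differences ran from -0.54 for Pcna to 0.64 for Mcm6, with a median of -0.12 beside -0.01 over all genes tested. The log2 value was below 0 for 24 of the 35 members, or 68.6%, where 50.9% of all genes tested were below 0. With library totals in place of TMM, 21 of the 35 were below 0. The median was then -0.07 for the members and 0.05 over all genes tested, so all values moved up together.

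Both libraries labelled cko lay below every control for 7 members, or 20%, beside 13.7% of all genes tested. These 7 were Cdc45, Gins1, Gins2, Rfc2, Rfc5, Fen1 and Tyms. Both lay above every control for 1 member, Mcm6, or 2.86%, beside 15.8% of all genes tested. For the other members the groups overlapped. The highest control was 1.07 to 2.57 times the lowest control, with a median of 1.43. For 26 of the 35 members this ratio was larger than the fitted fold between groups in either direction. A range of single libraries and a difference of group means are unlike measures, and this share was not computed over all genes tested. The standard errors ran from 0.18 to 0.40, and the 95% interval of the log2 difference lay between -1 and 1, that is within 2-fold either way, for 29 of the 35. In whole-retina RNA, fewer cells in S phase and less of a transcript per cell cannot be told apart.

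**Figure D1:**
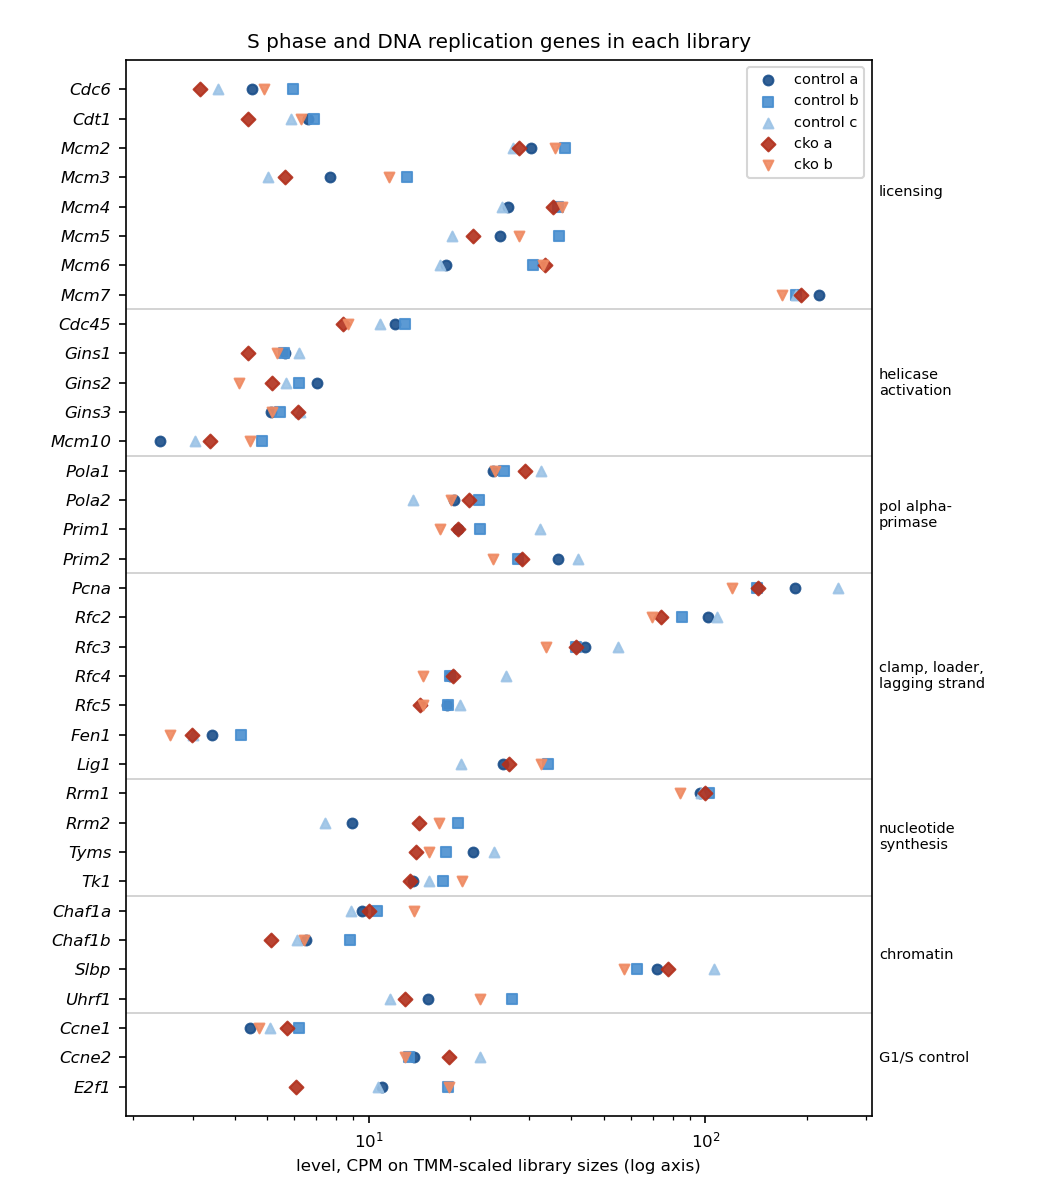
Level of each of the 35 members in each of the 5 libraries, in CPM on a log axis, with members grouped by role and 1 symbol per library. Pcna and Mcm7 were the highest members, from 120 to 247 CPM, and Mcm10 and Fen1 were among the lowest; control b and control c stand at opposite ends of the controls for many members.

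**Figure D2:**
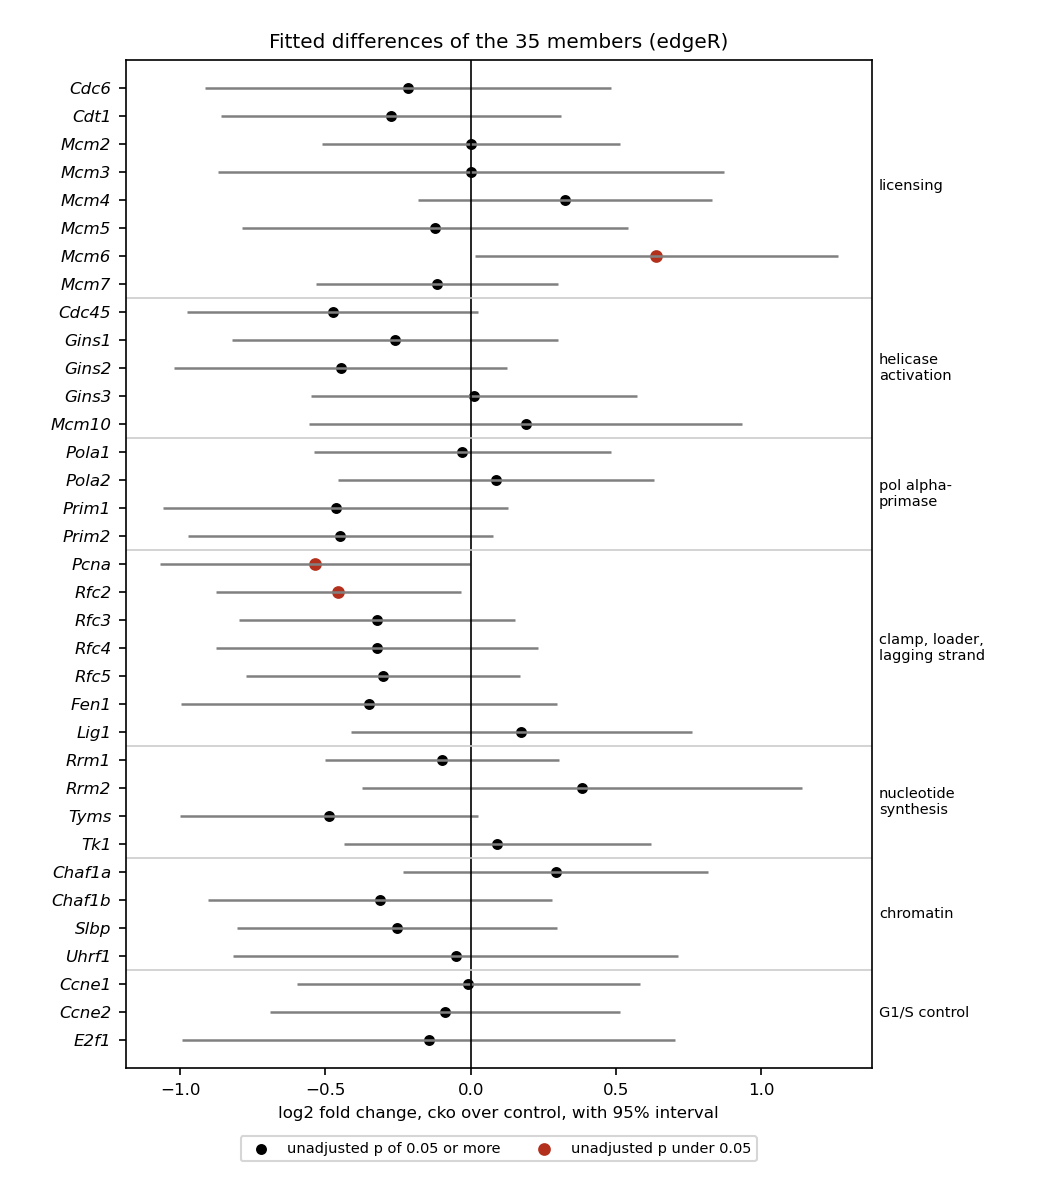
Fitted log2 difference of the libraries labelled cko over control for each member, with its 95% interval; red points had an unadjusted p under 0.05. Mcm6 is the highest point at 0.64, Pcna the lowest at -0.54, and 32 of the 35 intervals contain 0.

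RefSeq promoter windows on GRCm38.p6, from 250 bases before to 50 bases after an annotated start, were on hand for 29 of the 35 members in 34 windows. They were searched on both strands for the E2F letters TTTCCCGC, TTTGGCGC, TTTCGCGC and TTTGCCGC, which can overlap each other. At least 1 match was in 11 of the 34 windows, or 32.4%, beside 2.26% of all 32851 RefSeq windows. The pentamer CCAAT was in 55.9% of the member windows and 37.4% of all windows, and TTTGAA, a letter string of promoters of late cell cycle genes, in 11.8% and 17.9%. The E2F matches lay in windows of Cdc6, Cdt1, Gins3, Lig1, Mcm3, Mcm5, Mcm6, Mcm7, Pola1, Rfc3 and Uhrf1. Of these 11 genes 7 had a log2 value below 0 (median -0.05), and of the 18 with a window and no match 12 did (median -0.20). The stretches below show the matches of 5 members, from the member with the most matches, Mcm6, and from members of other roles or other levels. Each is read 5′ to 3′ on the gene's strand, ends before the annotated start, and has the E2F letters or their reverse complement in capitals. A match is a description of the letters and not a bound site.
Mcm6, chr1:128359720-128359840, minus strand: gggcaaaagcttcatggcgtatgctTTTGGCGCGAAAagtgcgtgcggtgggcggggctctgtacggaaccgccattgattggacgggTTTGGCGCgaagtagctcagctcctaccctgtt
Mcm5, chr8:75109331-75109392, plus strand: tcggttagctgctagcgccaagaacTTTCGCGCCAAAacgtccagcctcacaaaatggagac
Cdc6, chr11:98907988-98908045, plus strand: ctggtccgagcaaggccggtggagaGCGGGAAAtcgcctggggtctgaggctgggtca
Gins3, chr8:95633493-95633550, plus strand: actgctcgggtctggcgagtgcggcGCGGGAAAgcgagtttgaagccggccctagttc
Pola1, chrX:93632261-93632318, minus strand: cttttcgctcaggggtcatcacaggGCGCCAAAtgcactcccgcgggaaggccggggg

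The licensing genes had both the highest and some of the lowest members, and had values on both sides of 0. Of their 8 members, 4 had a log2 value above 0 and 4 below, with a median of -0.06. In all 8, control c was the lowest control. Mcm6, a subunit of the Mcm helicase ring (ENSMUSG00000026355, chromosome 1, 128331590 to 128359664, minus strand, GENCODE M21 on GRCm38), was at 17.0, 30.7 and 16.3 CPM in controls a, b, c and at 33.3 and 33.0 CPM in those labelled cko a and b. Both labelled libraries lay just above control b and well above controls a and c. The log2 difference was 0.64 (SE 0.28, 95% interval 0.01 to 1.26; edgeR adjusted p = 0.458). It was 0.998 without control b and 0.46 without control c, with adjusted p-values of 0.0890 and 0.760.

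Mcm7, another ring subunit, was at 217, 186 and 185 CPM in controls a, b, c and at 192 and 169 CPM in those labelled cko a and b, so the groups overlapped (log2 -0.12, SE 0.19; edgeR adjusted p = 0.825). Mcm4 was at 25.9, 36.5 and 24.9 CPM in the controls and 35.3 and 37.6 CPM in the libraries labelled cko. As for Mcm6, only control b was near the labelled libraries (log2 0.32, SE 0.23). Mcm3 was at 7.66, 12.96 and 5.04 CPM in the controls and 5.63 and 11.5 CPM in the libraries labelled cko. Its fitted difference was 0.0005 with an interval from -0.87 to 0.87, so differences of up to 0.87 on the log2 scale either way lay within its error. Its value was -0.61 without cko b and 0.42 without cko a. Mcm2 (log2 0.0014, SE 0.23) and Mcm5 (-0.12, SE 0.30) also overlapped. The loading factors Cdc6 and Cdt1 were at 3.15 to 5.94 and 4.37 to 6.87 CPM over the 5 libraries, each lowest in cko a (log2 -0.22, SE 0.32, and -0.27, SE 0.27).

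The helicase activation genes were low in all libraries, and 3 of 5 had both labelled libraries below every control, beside 13.7% of all genes tested. Cdc45, which binds the Mcm ring as it is activated (ENSMUSG00000000028, chromosome 16, 18780447 to 18811987), was at 11.9998, 12.8 and 10.8 CPM in controls a, b, c and at 8.39 and 8.68 CPM in those labelled cko a and b. The controls were close to each other, the groups did not overlap, and the interval of the difference contained 0 (log2 -0.47, SE 0.23, 95% interval -0.975 to 0.03; edgeR adjusted p = 0.473). Gins1, a subunit of the 4-part GINS complex, was at 5.64, 5.62 and 6.23 CPM in the controls and 4.37 and 5.36 CPM in those labelled cko (log2 -0.26, SE 0.26). Per kilobase of all exons it was the highest of this role in the controls, while by the longest coding transcript Cdc45 was (5.53 against 5.36). Gins2 was at 5.70 to 7.05 CPM in the controls and 4.13 to 5.16 CPM in those labelled cko (log2 -0.45, SE 0.26; adjusted p = 0.523). Gins3 (log2 0.01, SE 0.26) and Mcm10, which links the helicase to polymerase alpha (0.19, SE 0.34), overlapped between groups. The annotated exons of Cdc45 share 209 bases with Ufd1 and those of Gins2 2758 bases with Gse1, both on the opposite strand. The strand setting of the counting is not given in the sources used here, so the split of reads between these genes is uncertain.

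Polymerase alpha-primase starts each new strand with an RNA-DNA primer. Prim1, the catalytic primase subunit, was at 18.4, 21.4 and 32.2 CPM in controls a, b, c and at 18.5 and 16.3 CPM in those labelled cko a and b (log2 -0.46, SE 0.27; edgeR adjusted p = 0.522). Prim2, its regulatory subunit, was at 36.5, 27.8 and 41.8 CPM in the controls and 28.5 and 23.3 CPM in those labelled cko (log2 -0.45, SE 0.24; adjusted p = 0.496). In both, control c was the highest library, and cko a lay within or at the edge of the controls. The catalytic polymerase subunit Pola1 (log2 -0.03, SE 0.23) and its partner Pola2 (0.09, SE 0.25) overlapped between groups.

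Among genes of the clamp, the clamp loader and the lagging strand, 6 of 7 had a log2 value below 0, with a median of -0.32. Pcna, the sliding clamp (ENSMUSG00000027342, chromosome 2, 132249162 to 132253314, minus strand), was at 184, 142 and 247 CPM in controls a, b, c and at 143 and 120 CPM in those labelled cko a and b. The groups overlapped, since cko a was just above control b. The log2 difference was -0.54 (SE 0.24, 95% interval -1.07 to -0.001; edgeR adjusted p = 0.462), and it was -0.33 without control c and -0.71 without control b. A processed copy, Pcna-ps2, held 116 reads over all libraries, 0.541% of the reads of Pcna.

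Rfc2, a small subunit of the clamp loader (ENSMUSG00000023104, chromosome 5, 134581366 to 134601805, plus strand), had the smallest p of the 35 members. It was at 101, 85.02 and 108 CPM in controls a, b, c and at 73.7 and 69.4 CPM in those labelled cko a and b, and the groups did not overlap. Its log2 difference was -0.46 (SE 0.19, 95% interval -0.88 to -0.03; edgeR adjusted p = 0.443). Rfc5 was at 17.1, 17.3 and 18.7 CPM in the controls and at 14.2 and 14.5 CPM in the libraries labelled cko, again without overlap (log2 -0.30, SE 0.215). Rfc3 and Rfc4 had log2 values of -0.32 (SE 0.22) and -0.32 (SE 0.25), with cko a level with control b. These 4 clamp loader subunits had values below 0, from -0.46 to -0.30, and 0 of them passed the test over all genes. The large subunit of the same complex, Rfc1, which is not among the 35, was at 55.4, 64.3 and 56.6 CPM in the controls and at 71.9 and 61.6 CPM in those labelled cko (log2 0.18, SE 0.19). Fen1, which trims the flaps of lagging strand fragments, was at 3.004 to 4.19 CPM in the controls and 2.57 to 2.99 CPM in those labelled cko (log2 -0.35, SE 0.30). Lig1, which seals those fragments, was at 25.1, 34.2 and 18.8 CPM in the controls and 26.2 and 32.6 CPM in those labelled cko (log2 0.17, SE 0.27). Annotated exons of other genes overlap those of Rfc2, Rfc4, Rfc5, Fen1 and Lig1, among them the abundant Eif4a2 beside Rfc4.

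Genes of nucleotide synthesis had values on both sides of 0. Rrm1, the large subunit of ribonucleotide reductase, was at 96.0, 102 and 97.1 CPM in controls a, b, c and at 99.8 and 84.3 CPM in those labelled cko a and b (log2 -0.10, SE 0.18, 95% interval -0.50 to 0.31; edgeR adjusted p = 0.849). It had the closest controls of the 35 members. Rrm2, the small subunit, differed widely among the controls, at 8.95, 18.4 and 7.42 CPM, with 14.1 and 16.2 CPM in those labelled cko (log2 0.38, SE 0.34). Tyms, which makes thymidylate (ENSMUSG00000025747, chromosome 5, 30058202 to 30073617), was at 20.4, 16.9 and 23.5 CPM in the controls and at 13.8 and 15.1 CPM in the libraries labelled cko, without overlap (log2 -0.49, SE 0.23; adjusted p = 0.472). Tk1, which salvages thymidine, was at 13.5 to 16.7 CPM and at 13.2 and 19.0 CPM (log2 0.09, SE 0.24). Its exons share 83 bases with Afmid on the opposite strand.

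The chromatin genes and the S phase entry genes overlapped between the groups. Slbp, which binds the stem-loop of replication-dependent histone messenger RNAs, was at 72.0, 62.6 and 106 CPM in controls a, b, c and at 77.5 and 57.3 CPM in those labelled cko a and b (log2 -0.25, SE 0.25; edgeR adjusted p = 0.699). The histone chaperone subunits Chaf1a and Chaf1b had log2 values of 0.29 (SE 0.24) and -0.31 (SE 0.27). The exons of Chaf1a share 4648 bases with Ubxn6 on the opposite strand. Uhrf1, which recruits the maintenance DNA methyltransferase, was at 15.0, 26.6 and 11.6 CPM in the controls and at 12.8 and 21.4 CPM in those labelled cko (log2 -0.05, SE 0.35). The cyclin genes Ccne1 and Ccne2 had log2 values of -0.01 (SE 0.27) and -0.09 (SE 0.27). The exons of Ccne2 share 609 bases with the more abundant Ints8 on the opposite strand. E2f1, an activator of S phase genes (ENSMUSG00000027490, chromosome 2, 154559407 to 154569892), was at 10.9, 17.2 and 10.6 CPM in the controls and at 6.10 and 17.3 CPM in those labelled cko a and b. The labelled libraries differed 2.83-fold from each other, the widest gap between them for any member, with cko a below every control and cko b level with control b. Its log2 difference was -0.14 (SE 0.39; adjusted p = 0.900), and it was -1.08 without cko b (adjusted p = 0.250) and 0.42 without cko a (adjusted p = 0.620).

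Levels were then compared between genes per length, as CPM per kilobase of annotated exon. In the controls Pcna was the highest member at 79.6 ± 21.98 (SD, n = 3) and Mcm7 the second at 44.3 ± 4.08 (SD, n = 3), followed by Rfc2 at 15.6 ± 1.89. The lowest were Mcm10 at 0.446 ± 0.164, Cdc6 at 0.894 ± 0.228 and Chaf1a at 1.09 ± 0.100. Mcm2 to Mcm7 build 1 ring with each subunit present once, yet their transcripts were not level. Mcm2, Mcm3, Mcm4, Mcm5 and Mcm6 stood between 2.28 and 8.11 per kilobase in the controls, and Mcm7 was 5.46 times Mcm4, 9.69 times Mcm2 and 19.4 times Mcm3. With the length of the longest protein-coding transcript in place of all exons, Mcm7 was at 66.1 and the other 5 at 2.82 to 9.43 per kilobase. Mcm7 holds the precursors Mir25 and Mir93 in its gene, counted at 0 reads here, and its exons share 64 bases with Cops6 and 321 bases with Ap4m1 on the opposite strand, so part of its level is uncertain.

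The order of the other members depended on the length used. With the longest protein-coding transcript, Slbp at 42.2 and Rfc3 at 35.5 followed Pcna at 126 and Mcm7, while Rfc2 was at 19.7 per kilobase. The lowest were then Mcm10 at 0.704, Cdc6 at 1.013 and Fen1 at 1.49. The exons of Fen1 share 1909 bases with Gm10143 on the opposite strand, so its low level is uncertain. The same holds for the low levels of Chaf1a and Gins2, which share 4648 bases with Ubxn6 and 2758 bases with Gse1.

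The clamp loader subunits Rfc2, Rfc3 and Rfc4 were at 15.6, 12.9 and 13.1 per kilobase of all exons in the controls, Rfc1 at 9.76 and Rfc5 at 3.79. By the longest coding transcript Rfc2, Rfc3 and Rfc4 were at 19.7, 35.5 and 15.7, Rfc1 at 12.4 and Rfc5 at 6.33, so Rfc5 was the lowest by both lengths and the highest subunit differed. Of the GINS subunits, Gins1 was at 3.85 ± 0.229 (SD, n = 3), Gins3 at 2.07 ± 0.216 and Gins2 at 1.54 ± 0.166 per kilobase of all exons. The remaining GINS subunit, Gins4, which is not among the 35, was far higher at 24.4 ± 1.71 (log2 -0.28, SE 0.21, with both libraries labelled cko below every control). Prim1 and Prim2 were at 6.20 ± 1.87 and 5.96 ± 1.196 per kilobase of all exons, and at 15.2 and 17.9 by the longest coding transcript. Together Pcna and Mcm7 held 29.1% to 35.6% of the summed CPM of the 35 members, depending on the library.

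**Figure D3:**
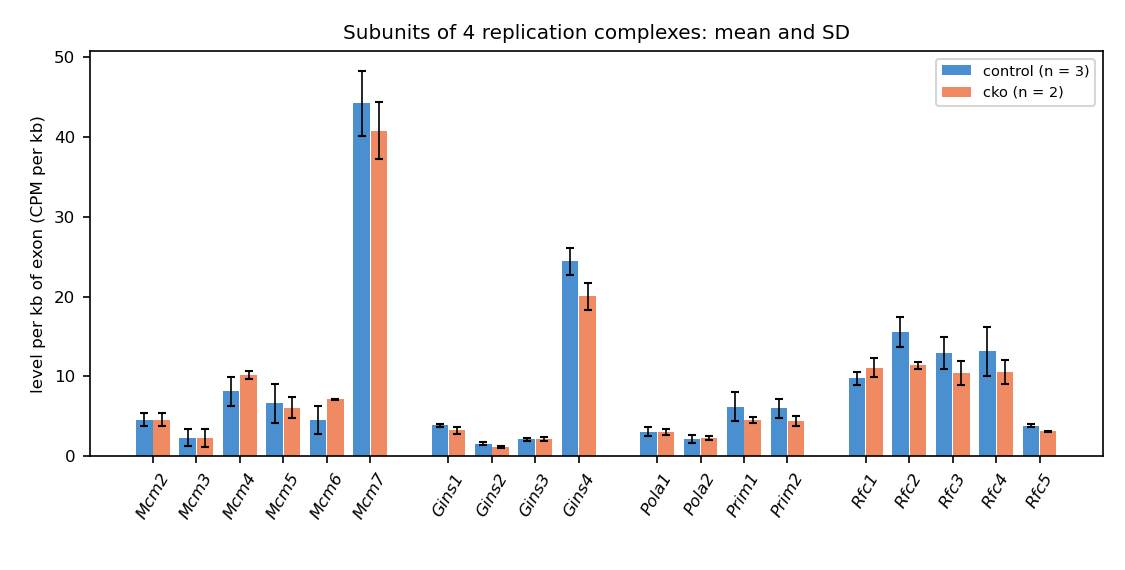
Mean level per kilobase of exon, in CPM per kilobase, of the subunits of 4 replication complexes, with Gins4 and Rfc1 added to the members, in control (blue) and in the libraries labelled cko (orange); error bars are the SD of 3 and 2 libraries. Mcm7 stands at 44.3 in the controls against 2.28 to 8.11 for the other 5 ring subunits, Gins4 at 24.4 stands above the other GINS subunits, and Rfc5 at 3.79 below the other clamp loader subunits.

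The order of the libraries differed by role, and the 2 libraries labelled cko were often apart. Summed over the 35 members, levels were 1125, 1125 and 1227 CPM in controls a, b, c and 1040 and 991 CPM in those labelled cko a and b. The library labelled cko a was below every control for 12 members, beside 29.6% of all genes tested, and above every control for 1, beside 29.8%. The library labelled cko b was below every control for 16 members, beside 31.2% of all genes tested, and above every control for 5, beside 32.1%. As the median log2 difference from the control mean, licensing genes stood at -0.04, 0.36 and -0.28 in controls a, b, c and at -0.24 and 0.17 in cko a and b. Genes of the clamp, loader and lagging strand stood at -0.03, -0.17 and 0.15 in the controls and at -0.22 and -0.45 in cko a and b. Thus control b and cko b were the highest libraries for licensing genes, while cko b was the lowest for the clamp group.

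Retinal progenitor genes also had control b and cko b as their highest libraries. Their median difference from the control mean was -0.02, 0.24 and -0.20 in controls a, b, c and -0.67 and 0.43 in those labelled cko a and b. The 14 genes of that list summed to 1114, 1351 and 904 CPM in the controls and 942 and 1403 CPM in the libraries labelled cko, and 12 of the 14 were higher in cko b than in cko a, beside 46.6% of all genes tested. Their part in the licensing values was not tested. Of the progenitor list 7 genes had a log2 value above 0 and 7 below, with a median of 0.02, and 0 passed the test. The 2 with an unadjusted edgeR p under 0.05, Pax6 and Hes1, were both on the higher side. On the lower side, Ccnd1 had a log2 difference of -0.54 (SE 0.25), Hes5 of -0.58 (SE 0.36) and Sfrp2 of -0.80 (SE 0.41). Each of these had an unadjusted edgeR p above 0.05. On the higher side, Pax6, which also marks amacrine and ganglion cells, was at 179 to 267 CPM in the controls and at 345 and 344 CPM in those labelled cko (log2 0.64, SE 0.21; edgeR adjusted p = 0.433). Hes1 was at 12.3 to 15.9 CPM in the controls and at 15.5 and 27.3 CPM in cko a and b (log2 0.65, SE 0.27). Genes of G2 and M phase, which mark the later part of the same cycle, had 18 of 25 log2 values below 0, beside 50.9% of all genes tested, and a median of -0.21. Of these 25 genes, 24 were higher in cko b than in cko a, and 0 passed the test. Cdk1, the mitotic kinase, was at 22.9 to 39.2 CPM in the controls and at 15.6 and 21.8 CPM in those labelled cko (log2 -0.69, SE 0.28; adjusted p = 0.443), and Top2a at 84.7 to 122 CPM and at 79.8 and 103 CPM (log2 -0.25, SE 0.22).

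**Figure D4:**
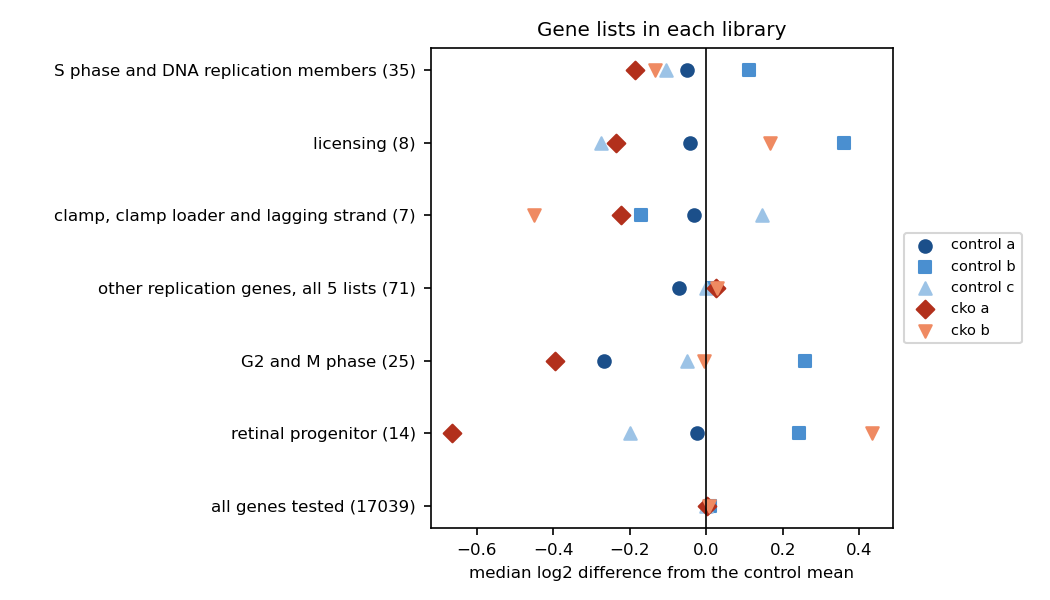
Median log2 difference from the control mean in each library, for the 35 members, 2 of their roles and 4 other sets of genes, with the number of genes in brackets. Progenitor genes spread from -0.67 in cko a to 0.43 in cko b, licensing genes from -0.28 in control c to 0.36 in control b, and the clamp group has both cko libraries lowest.

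Another 71 replication genes outside the 35 had a median log2 difference of 0.02, with 32 below 0 and 39 above. Of these, 0 passed the test and 4 of 71 had an unadjusted p under 0.05, a smaller share than the 10.8% of all genes tested. Dtl, which directs the destruction of Cdt1 on chromatin, was at 2.13, 4.26 and 2.78 CPM in controls a, b, c and at 5.24 and 6.81 CPM in those labelled cko a and b (log2 0.97, SE 0.33; edgeR adjusted p = 0.433). The licensing inhibitor Gmnn was at 11.4 to 18.2 CPM in the controls and at 9.61 and 9.52 CPM in those labelled cko (log2 -0.60, SE 0.26). Rpa2, a subunit of the single-strand binding complex, had a log2 difference of -0.575 (SE 0.23) and Chtf8, of an alternative clamp loader, one of -0.60 (SE 0.22), also without overlap. The most abundant genes of 4 of the lists these come from were Orc3 (log2 -0.05), Cdc7 (0.10), Dtymk (-0.32) and Rbbp4 (-0.21), and the smallest p in 2 of the lists were those of Dbf4 (0.41) and Dut (-0.43).

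Summed markers of other cells of the retina overlapped between the groups in every list of this kind. Vascular endothelium markers summed to 90.6 to 290 CPM in the controls and to 270 and 345 CPM in the libraries labelled cko, with 6 of 9 genes above 0 on the log2 scale and most of the sum from Kdr (log2 0.83, SE 0.41), while Cdh5 was at 0.928 to 1.97 CPM and Tie1 at 0.709 to 1.71 CPM. Astrocyte markers summed to 151 to 175 CPM and to 159 and 142 CPM, with 4 of 5 genes below 0, Pdgfra the most abundant (log2 0.19) and Aldoc of the smallest p (-0.47). Microglia markers summed to 75.9 to 93.8 CPM and to 78.8 and 113 CPM, with 6 of 8 genes above 0 and Tmem119 of the smallest p (log2 -0.82). Muller glia markers summed to 1473 to 2291 CPM and to 1945 and 1893 CPM, with 5 of 8 genes above 0 and a median log2 of 0.30. Of these glial genes Crym was the most abundant (log2 -0.38). Rlbp1 had the smallest p (-0.54) and was below every control in both libraries labelled cko. Apoe was above every control in both (0.43). That is 1 of 8 genes on each side, beside 13.7% of all genes tested below every control and 15.8% above. Rod markers summed to 11857 to 15295 CPM and to 13910 and 9593 CPM, with 6 of 8 genes below 0, Sag the most abundant (log2 -0.67) and Gnat1 of the smallest p (0.60). Of these 5 lists 0 members passed the test, and the part of these cells in the members' values was not tested.

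Base composition moved with the order of the libraries among the members. Across the 35 members, which share their libraries, the log2 difference of control c from the mean of control a and b had r = -0.61 and rho = -0.62 with the GC content of the longest transcript, beside r = -0.17 over 16911 genes tested with a sequence. The log2 difference of cko b from cko a had r = 0.64 and rho = 0.59 with GC content across the members, beside r = 0.29 over those genes. The difference between the group means had r = 0.01 across the members and -0.28 over those genes. Of the 13 members highest in control c, with a median GC content of 44.4%, 12 had a log2 value below 0. Of the 20 members highest in control b, with a median of 51.8%, 10 did. The control values that sort the members also enter their log2 values, so these counts are not independent of the sorting. The same counts were not made over all genes tested. Among the 13 were Pcna, Slbp, Prim1, Prim2, Rfc2, Rfc3, Rfc4, Rfc5 and Tyms, and among the 20 were Mcm2, Mcm3, Mcm4, Mcm5, Mcm6, Uhrf1, Lig1 and E2f1. With the dependence of each library on GC content and length removed by a smooth fit, a setting chosen after seeing the data, 7 members had an unadjusted p under 0.05, or 7 of 35 beside 12.5% of all genes tested. All 7 were on the lower side, where 6.0% of all genes tested lay: Cdc45, Prim1, Prim2, Pcna, Rfc2, Rfc3 and Tyms. EdgeR again called 0 of the 35 there, and Mcm6 had a log2 of 0.51 with an adjusted p of 0.408.

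**Figure D5:**
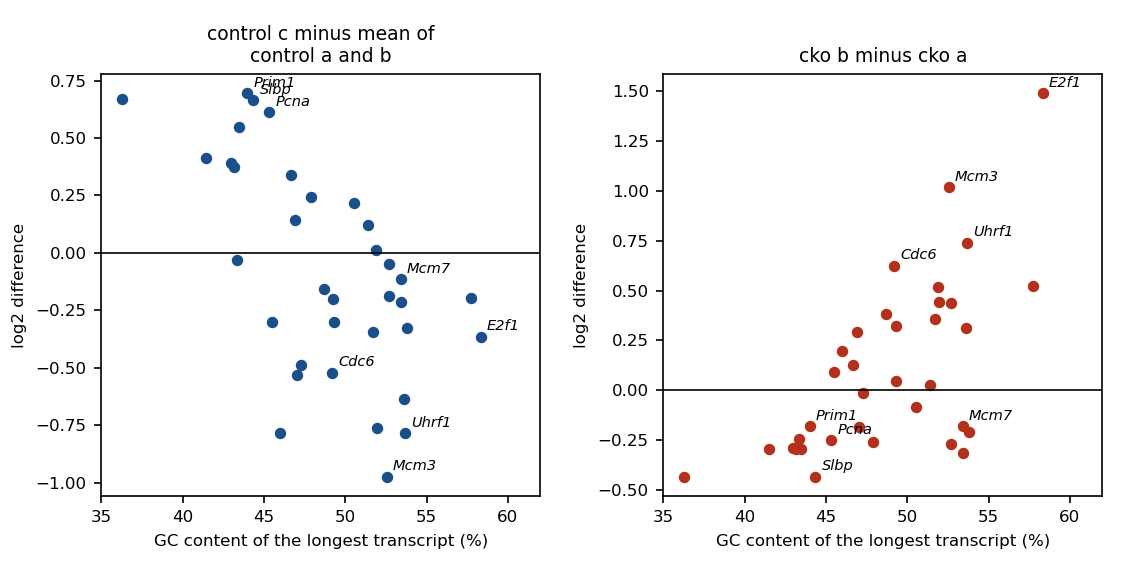
GC content of the longest annotated transcript of each member (percent, x axis) against the log2 difference of control c from the mean of control a and b (left) and of cko b from cko a (right), 1 point per member. The left panel slopes down (r = -0.61), with Pcna and Slbp high and Mcm3 and Uhrf1 low, and the right panel slopes up (r = 0.64), with E2f1 and Mcm3 highest.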

How the data were processed

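The authors deposited raw read counts per Ensembl gene, whole numbers without normalization. Named in the submitters' processing notes are CASAVA, HISAT2, featureCounts and mm10. Versions, annotation release and strand setting: not given in the sources used here. Symbols matched 42462 of 43432 IDs; coordinates and lengths come from GENCODE M21 on GRCm38, and promoters from RefSeq (GRCm38.p6). Groups come from the titles. With R 4.3.3 and edgeR 4.0.16, genes were kept by filterByExpr (minimum count 10, total 15), scaled by TMM and tested by glmQLFTest over all 5 libraries without covariates, with Benjamini-Hochberg adjustment over 17039 genes. SE is the log2 difference divided by the square root of F. Library differences used log2 CPM with a prior count of 2; levels per kilobase used all annotated exons of a gene. Alternatives used DESeq2 1.42.0, limma 3.58.1, other scalings and filters, a library left out, and the letter as a block. On 1 set of simulated counts with known changes of 1 or 2 on the log2 scale either way, edgeR gave the right sign to the changed genes it called. It missed most changes of 1 on that scale, a size above every fitted member difference. The changed genes were drawn at random from genes above a low level and were not matched to the members. The share missed among the members is thus not known, and changes of the fitted size could go uncalled. In this 1 set, too few to measure a rate, edgeR made more false calls than its nominal rate. Chi-square per degree of freedom between libraries was at least 26.7, so none is a double deposit. Nothing says that libraries are separate animals, so the p-values reflect only how far these libraries spread, which may be technical. Counts of 63 to 5689 reads per member and library set the depth. Named members are those at an unadjusted p under 0.05 and, per role or list, the most abundant and the one of smallest p; others were named after their values were seen. A marker that this rule names is not reported here. The members and lists were chosen with earlier results of these data known.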

Additional observations from a re-analysis of the deposited data

How the results depend on the processing

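Of the 35 members 0 were called in the reported test and in 14 alternatives, of which DESeq2 and limma-voom were 1 each and the others edgeR fits. The smallest adjusted p of any member was 0.0890, for Mcm6 without control b. The median log2 difference of the members was -0.22 to -0.08 when 1 library was left out, and members at an unadjusted p under 0.05 numbered 0 to 7 of 35. That count was 7 without control b, where 18.1% of all genes tested were there, and 0 without control a or cko a. It was 1 with library totals, 7 with the GC and length trend removed and 0 with the letter as replicate block. Over all genes edgeR called 17 genes, and 11 with library totals, 262 with no low-count filter, 39 with the replicate block and 0 to 45 with a library left out; DESeq2 called 85. No label says that the letters pair libraries. The r of log2 deviations of same-letter libraries was -0.01 for a and 0.15 for b. With 2 libraries labelled cko centred on their mean, control b had -0.15 with cko a by construction, so r cannot decide a pairing. Chi-square per degree of freedom was 27.1 between control b and cko b and 62 between control a and cko a. Between cko a and cko b it was 52.8. A shared origin of same-letter libraries was not tested. The block turned no call of a member. Of the 35 members 20 kept their sign throughout; the other 15 had log2 values of at most 0.22 in size in the reported test. With a library left out these ran from -0.15 to 0.13 for Ccne1, -0.32 to 0.15 for Ccne2, -0.57 to 0.0655 for Cdc6, -1.08 to 0.42 for E2f1, -0.12 to 0.14 for Gins3, -0.0302 to 0.42 for Lig1, -0.0308 to 0.53 for Mcm10, -0.19 to 0.17 for Mcm2, -0.61 to 0.43 for Mcm3, -0.36 to 0.20 for Mcm5, -0.18 to 0.11 for Pola1, -0.0921 to 0.25 for Pola2, -0.23 to 0.0185 for Rrm1, -0.19 to 0.33 for Tk1 and -0.47 to 0.36 for Uhrf1. With the replicate block the sign turned for Mcm2 (-0.11), Mcm3 (-0.30), Pola1 (0.12), Pola2 (-0.0685), Lig1 (-0.0041) and Ccne2 (0.16). With library totals it turned for Pola1 (0.0304), Uhrf1 (0.0036) and Ccne1 (0.0403), with the upper quartile for Ccne1 (0.0020), and with no filter for Mcm2 (-0.0051) and Mcm3 (-0.0054). With the GC and length trend removed, chosen after seeing the data, it turned for Gins3 (-0.0534), Uhrf1 (0.0095), Ccne1 (0.0725) and E2f1 (0.0511). The cause was not tested.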
